A study of Rattus norvegicus with 15 samples.

Results

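Cysteine tRNA with the anticodon GCA gave 22 of the 714 tRNA-derived small RNAs (tsRNAs) listed for rat left ventricle. They were taken as all fragments whose name begins with tRF-Cys-GCA-, where tRF stands for tRNA-derived fragment and the last digits are a serial number. The libraries came from left heart ventricle, 5 Sprague-Dawley rats to each of 3 groups. The restricted group had caloric restriction as pretreatment before isoproterenol, the isoproterenol group received the drug alone, and the control group was untreated. Isoproterenol is a beta-adrenergic agonist that overdrives and can injure the heart, and the rats of both treated groups are called myocardial ischemic in the labels. No group was restricted without the drug, and the sources used here give no dose, time or age.

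Cysteine tRNA carries cysteine to the ribosome, and mammals make it from a family of nuclear genes and from a mitochondrial gene, all with the anticodon GCA. RefSeq (GRCr8) names 38 nuclear genes of this tRNA in the rat. Ribonucleases cut tRNAs at the loops or ends into short fragments that can bind proteins, enter Argonaute complexes or act on translation, and cleavage in the anticodon loop by angiogenin is a known stress response. In human cells, a 5′ fragment of cysteine tRNA made by such a cut can repress translation initiation, and in mouse and human breast cancer cells a 5′ cysteine fragment binds nucleolin. The fragments were known by name alone, so whether a fragment comes from the 5′ or 3′ part, or from the nuclear or the mitochondrial tRNA, cannot be said. Fragments of nearly identical sequence could have shared reads in the authors' counting, which makes each of them uncertain as a single species.

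Levels are given as deposited, in CPM, the reads of a fragment scaled to a fixed library total. The totals by which the authors divided ran from 106082 to 1128887 reads, a 10.6-fold range, with control replicate 4 the largest, and 1 read was worth 0.886 to 9.43 CPM. A library at 0 reads therefore allowed a level of up to 2.66 to 28.3 CPM (3 reads, counting error only). The totals averaged 256426 reads in restricted (median 222363), 269329 in isoproterenol (median 269399) and 495471 in control libraries (median 381563). Treated and control libraries thus differed in the divisor on average, and its part in their differences was not tested. The listed tsRNAs made up 50.4% ± 13.6 of the total in restricted, 61.6% ± 13.6 in isoproterenol and 28.6% ± 4.77 in control libraries (SD, n = 5 each). Changes are from limma on log2(CPM + 1), fitted across the 707 tsRNAs that reached 1 CPM in 5 or more libraries and adjusted over all of them by the Benjamini-Hochberg method, with adjusted p under 0.05 counted as a change. All 22 cysteine fragments passed that filter. In whole ventricle, fewer cells of a type and less RNA per cell cannot be told apart.

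The cysteine fragments were a minor part of the pool whose make-up differed between treated and untreated hearts. In control ventricles tRF-Cys-GCA-051 was the most abundant of them and held 37.9% ± 4.47 of the cysteine fragment reads, while in restricted and isoproterenol ventricles it held 7.28% ± 3.36 and 5.81% ± 3.99. There tRF-Cys-GCA-029 led instead, with 46.8% ± 6.41 of these reads in restricted, 44.2% ± 7.9 in isoproterenol and 20.9% ± 7.14 in control ventricles. In the isoproterenol group 6 of the 22 fragments were higher and 8 lower than in control, 14 in all, beside 47.9% of all 707 tsRNAs tested. In the restricted group 7 were higher and 6 lower than in control, 13 in all, beside 58.4% of all tsRNAs tested, and 0 passed the test of a difference between the restricted and isoproterenol groups, as for 0% of all.

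Summed over all 22 fragments, the level by library was 6416, 3443, 4684, 4343 and 3463 CPM in restricted, 2569, 4586, 5449, 1579 and 929 CPM in isoproterenol and 4298, 3920.1, 4197, 1284 and 4162 CPM in control ventricles, in the order of replicates 1 to 5. The 3 groups overlapped, and control replicate 4 lay far below the other controls. As a share of the listed tsRNA reads, the cysteine fragments held 0.96% ± 0.435 in restricted, 0.545% ± 0.43 in isoproterenol and 1.25% ± 0.449 in control libraries (SD, n = 5 each). The summed level averaged 897.5 CPM more in restricted than in control ventricles as deposited, but the difference was -1351 CPM once the listed tsRNAs of every library were scaled to the same total. Between 16 and 22 of the fragments had at least 1 read in any library.

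The level of the abundant fragments fell with the library total within groups. A level is the reads divided by that total, so a negative correlation is in part built in. The permutations below cannot separate that part, and their p-values describe the values only. For tRF-Cys-GCA-029 the reads ran from 153 to 629 over the 15 libraries, while the totals spanned the range given above. The median reads per listed tsRNA were likewise 4 to 9 in every library, and whether reads were capped, collapsed or subsampled before counting is not stated. The part of this in the CPM levels and fold changes was not tested. Taken as deviations from group means over 15 libraries, its log2 level and the log2 total gave Pearson's r = -0.949 and Spearman's rho = -0.918 (permutation within groups, p = 2e-05 and 7e-05, adjusted over the 5 most abundant fragments 7.5e-05 and 0.0002). Without control replicate 4 and isoproterenol replicate 5, the libraries with the most extreme totals, r was -0.898. tRF-Cys-GCA-007 behaved alike (r = -0.949, rho = -0.929, permutation p = 3e-05 and 8e-05, adjusted 7.5e-05 and 0.0002, r = -0.889 without those libraries). For tRF-Cys-GCA-042 r was -0.725 and rho -0.807 (permutation p = 0.00071 and 0.00015, adjusted 0.0012 and 0.00025, r = -0.803 without them). For tRF-Cys-GCA-050 they were -0.799 and -0.807 (permutation p = 0.013 and 0.011, adjusted 0.016 and 0.013, r = -0.754 without them). For tRF-Cys-GCA-051 r was -0.582 and rho -0.639 (permutation p = 0.063 and 0.034, adjusted 0.063 and 0.034), and r was -0.493 without them. Fits with the log2 total as a covariate are therefore given where they change a call. A turn of direction in a fragment that was not called is not always given.

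tRF-Cys-GCA-051 carried the largest loss in abundance. It stood at 189, 337, 491, 195 and 301 CPM in restricted, 37.1, 367, 179, 76.1 and 107 CPM in isoproterenol and 1391, 1733, 1539.8, 465 and 1675 CPM in control ventricles. Every isoproterenol library was below every control library, and of the restricted libraries only replicate 3 reached above the lowest control, replicate 4. The fall was -3.42 on the log2 scale for isoproterenol versus control (SE 0.57, limma adjusted p = 4.64e-06) and -2.12 for restricted versus control (SE 0.57, limma adjusted p = 0.00186), both measured against the same controls. Relative to the median over all tsRNAs of each comparison, the changes of tRF-Cys-GCA-051 were -4.67 and -3.72. tRF-Cys-GCA-051 kept its call in these comparisons under all 23 alternative settings each, from -4.66 to -3.01 and from -3.74 to -1.97.

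tRF-Cys-GCA-050 had the same order of groups at a lower level. Its values were 153, 106, 185, 123 and 193 CPM in restricted, 26.0, 164, 94.3, 33.5 and 48.6 CPM in isoproterenol and 458, 507, 434, 94.8 and 469 CPM in control ventricles. Control replicate 4 alone lay within the range of the treated groups. It fell by 2.52 on the log2 scale in isoproterenol versus control (SE 0.59, limma adjusted p = 0.000498). For restricted versus control the log2 fold change of tRF-Cys-GCA-050 was -1.19 (SE 0.59), which did not pass as deposited (limma adjusted p = 0.0757). It passed without control replicate 4 (-1.65, adjusted p = 0.0123) and with the log2 total as a covariate (-1.90, adjusted p = 0.000874). It also passed with median-of-ratios scaling (-2.81, adjusted p = 7.58e-06), with the listed tsRNAs scaled to the same total (-1.98, adjusted p = 0.0157) and by DESeq2 (-2.83, adjusted p = 2.15e-15). By edgeR it passed with the authors' totals (-1.37, adjusted p = 0.0276) and with TMM factors (-2.87, adjusted p = 1.78e-05). Other pseudocounts or filters and the replicate block did not call it. Over the 15 libraries, as deviations from group means, tRF-Cys-GCA-050 and tRF-Cys-GCA-051 had a Pearson r of 0.903. Together they held 10.8% ± 4.23 of the cysteine fragment reads in restricted, 8.55% ± 5.67 in isoproterenol and 48.5% ± 5.91 in control libraries (SD, n = 5 each), with no treated library above 16.7% and no control below 43.0%.

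The other 6 fragments that fell in isoproterenol ventricles were of low to moderate level in control. tRF-Cys-GCA-046 was at 12.2, 0, 13.5, 65.1 and 13.5 CPM in restricted, 0, 23.4, 9.43, 0 and 5.83 CPM in isoproterenol and 102, 177, 66.8, 106 and 91.7 CPM in control ventricles. Both treated groups lay wholly below control, though restricted replicate 4 and control replicate 3 each had 18 reads (65.1 and 66.8 CPM). Its log2 fold change was -4.55 for isoproterenol versus control (SE 0.86, limma adjusted p = 3.14e-05), the largest fall among the cysteine fragments, and -3.21 for restricted versus control (SE 0.86, limma adjusted p = 0.00188).

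tRF-Cys-GCA-065 was at 36.6, 128, 9.01, 10.9 and 22.5 CPM in restricted, 18.6, 15.6, 0, 33.5 and 13.6 CPM in isoproterenol and 113, 217, 178, 153 and 139 CPM in control ventricles. Only restricted replicate 2 reached the control range. The fall was -3.83 (SE 0.75, limma adjusted p = 5.68e-05) for isoproterenol and -2.56 (SE 0.75, limma adjusted p = 0.00386) for restricted versus control. tRF-Cys-GCA-066 was at 12.2, 0, 0, 10.9 and 8.99 CPM in restricted, 0, 0, 0, 0 and 3.89 CPM in isoproterenol and 29.3, 37.7, 11.1, 13.3 and 28.8 CPM in control ventricles. It rested on 2 pooled reads in the isoproterenol group against 53 in control, 14.4-fold lower per library total (95% counting interval 3.8 to 122). This interval, like those below for tRF-Cys-GCA-063 and tRF-Cys-GCA-022, counts reads only and leaves out the spread between rats. The log2 fold changes of tRF-Cys-GCA-066 were -4.05 (limma adjusted p = 0.000268) for isoproterenol and -2.38 (limma adjusted p = 0.0203) for restricted versus control. The restricted call of tRF-Cys-GCA-066 was lost without restricted replicate 2 or 3 (adjusted p = 0.0727 and 0.0781) and without control replicate 2 (0.059).

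tRF-Cys-GCA-010 was at 18.3, 141, 4.50, 25.3 and 13.5 CPM in restricted, 14.8, 23.4, 18.9, 15.2 and 1.94 CPM in isoproterenol and 62.2, 49.5, 44.5, 45.2 and 68.1 CPM in control ventricles. The isoproterenol libraries lay wholly below control, and restricted replicate 2 lay above every control. It fell by 2.06 in isoproterenol versus control (SE 0.73, limma adjusted p = 0.0186), a call lost without isoproterenol replicate 5 (adjusted p = 0.0632). In the restricted group tRF-Cys-GCA-010 was at -1.27 relative to control (limma adjusted p = 0.13), and at -1.93 without restricted replicate 2 (adjusted p = 0.0211). With that library kept, it was called lower with median-of-ratios scaling (-2.80, adjusted p = 0.00568). The same held with the listed tsRNAs scaled to the same total (-2.05, adjusted p = 0.0315), but neither edgeR nor DESeq2 called it.

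tRF-Cys-GCA-041 had 0, 7.55, 4.50, 10.9 and 0 CPM in restricted, 0, 7.81, 0, 3.04 and 3.89 CPM in isoproterenol and 11.0, 23.6, 11.1, 15.9 and 15.7 CPM in control ventricles. Both treated groups lay wholly below control, on 7 and 4 pooled reads against 40. Restricted replicates 2 and 4 and control replicates 1 and 3 each had 3 reads, so their order in CPM came from the library totals alone. The falls of tRF-Cys-GCA-041, -2.50 and -2.17 (isoproterenol and restricted versus control, limma adjusted p = 0.0181 and 0.0323), were lost with the log2 total as a covariate (adjusted p = 0.0946 and 0.116). The isoproterenol fall of tRF-Cys-GCA-041 was also lost without isoproterenol replicate 1 or 3 (adjusted p = 0.0539 and 0.0507), and the restricted one without restricted replicate 1 or 5 or control replicate 2, 4 or 5 (adjusted p from 0.0559 to 0.104). tRF-Cys-GCA-054 had 6.10, 0, 4.50, 21.7 and 4.50 CPM in restricted, 0, 31.3, 0, 3.04 and 9.72 CPM in isoproterenol and 29.3, 16.5, 22.3, 31.9 and 34.1 CPM in control ventricles. A single library of each treated group, restricted replicate 4 and isoproterenol replicate 2, lay within the control range. Its falls were -2.66 and -2.30 (isoproterenol and restricted versus control, limma adjusted p = 0.0117 and 0.0229). The restricted one was lost without restricted replicate 2 (adjusted p = 0.0933), without control replicate 4 (0.0514) and with the log2 total as a covariate (0.0575).

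Of the fragments that rose, 6 were scarce in untreated hearts, with a mean of at most 10.8 CPM. tRF-Cys-GCA-061 was at 342, 161, 414, 156 and 202 CPM in restricted, 171, 320.3, 452, 79.1 and 31.1 CPM in isoproterenol and 14.6, 7.07, 11.1, 2.66 and 18.3 CPM in control ventricles. tRF-Cys-GCA-062 was at 153, 57.9, 185, 101 and 67.5 CPM in restricted, 104, 141, 292, 73.0 and 19.4 CPM in isoproterenol and 3.66, 2.36, 3.71, 1.77 and 5.24 CPM in control ventricles. Every treated library was above every control library for both fragments. For isoproterenol versus control the log2 fold change was 3.84 for tRF-Cys-GCA-061 (SE 0.65, limma adjusted p = 6.92e-06) and 4.46 for tRF-Cys-GCA-062 (SE 0.67, limma adjusted p = 7.6e-07). The same values for restricted versus control were 4.54 (SE 0.65, limma adjusted p = 3.96e-07) and 4.63 (SE 0.67, limma adjusted p = 3.98e-07). tRF-Cys-GCA-061 and tRF-Cys-GCA-062 had 20 and 7 pooled reads in control, and both passed under all 23 alternative settings in each of these comparisons.

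tRF-Cys-GCA-063 had 30.5, 7.55, 18.0, 10.9 and 8.99 CPM in restricted, 14.8, 31.3, 47.1, 6.09 and 9.72 CPM in isoproterenol and 0, 0, 0, 0.886 and 0 CPM in control ventricles. It was detected in every treated library and in 1 control library, by a single read. Per library total it was 32.8-fold higher in restricted (95% counting interval 5.15 to 1373) and 36.8-fold higher in isoproterenol ventricles (5.88 to 1525) than in control. Its log2 fold changes were 3.66 and 3.98 (restricted and isoproterenol versus control, limma adjusted p = 0.00028 and 8.5e-05). The 3 fragments tRF-Cys-GCA-061, tRF-Cys-GCA-062 and tRF-Cys-GCA-063 together held 8.43% ± 2.8 of the cysteine fragment reads in restricted, 10.6% ± 2.88 in isoproterenol and 0.4% ± 0.119 in control libraries.

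tRF-Cys-GCA-005 was at 104, 35.2, 72.1, 86.9 and 54.0 CPM in restricted, 52.0, 31.3, 226, 24.3 and 44.7 CPM in isoproterenol and 3.66, 9.43, 7.42, 0.886 and 18.3 CPM in control ventricles. Both treated groups lay wholly above control, with isoproterenol replicate 3 far above the rest of its group. It rose by 3.29 in restricted (SE 0.70, limma adjusted p = 0.000201) and by 2.98 in isoproterenol ventricles (SE 0.70, limma adjusted p = 0.000556). tRF-Cys-GCA-027 was at 48.8, 5.03, 36.0, 43.4 and 8.99 CPM in restricted, 29.7, 31.3, 37.7, 6.09 and 9.72 CPM in isoproterenol and 0, 4.71, 0, 0 and 10.5 CPM in control ventricles. Control replicate 5 lay within the range of the treated groups. It rose by 3.24 and 3.09 (restricted and isoproterenol versus control, limma adjusted p = 0.00148 and 0.00245), which DESeq2 on the recovered reads did not call for tRF-Cys-GCA-027 (1.62 and 1.64, adjusted p = 0.131 and 0.144).

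tRF-Cys-GCA-022 had 0, 2.52, 0, 10.9 and 4.50 CPM in restricted, 44.5, 7.81, 9.43, 12.2 and 15.5 CPM in isoproterenol and 0, 0, 0, 0 and 5.24 CPM in control ventricles. The isoproterenol libraries lay wholly above control, and the restricted libraries overlapped with both other groups. It rose in isoproterenol versus control by 3.43 (SE 0.91, limma adjusted p = 0.00202), on 26 pooled reads against 2, a 23.9-fold higher rate (95% counting interval 5.99 to 208). Of these 26 reads, 12 came from isoproterenol replicate 1. The log2 fold change of tRF-Cys-GCA-022 for restricted versus control was 1.04 (limma adjusted p = 0.327), on 5 reads against 2.

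The 2 most read fragments of the treated hearts, tRF-Cys-GCA-029 and tRF-Cys-GCA-007, went together. tRF-Cys-GCA-029 was at 3437, 1303, 2135, 2276 and 1543 CPM in restricted, 1373, 2063, 2602, 676 and 297 CPM in isoproterenol and 1245, 653, 1087, 144 and 912 CPM in control ventricles. tRF-Cys-GCA-007 was at 1294, 470.4, 743, 963 and 594 CPM in restricted, 512, 875, 1131, 344 and 157 CPM in isoproterenol and 425, 219, 419, 69.1 and 390.5 CPM in control ventricles. The restricted libraries lay wholly above control for both, while isoproterenol overlapped with control. The 2 fragments had a Pearson r of 0.989 over the 15 libraries, as deviations from group means, and both levels fell as the library total, their divisor, rose.

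For restricted versus control tRF-Cys-GCA-029 rose by 1.63 (SE 0.57, limma adjusted p = 0.0133) and tRF-Cys-GCA-007 by 1.58 (SE 0.57, limma adjusted p = 0.0156). Both calls were lost without control replicate 4 (1.09 and 1.12, adjusted p = 0.0781 and 0.0711), and with the log2 total as a covariate (0.61 and 0.66, adjusted p = 0.129 and 0.0858). With median-of-ratios scaling the log2 fold changes were 0.01 and -0.04 (adjusted p = 0.981 and 0.94), so the direction of tRF-Cys-GCA-007 turned. The call of tRF-Cys-GCA-007 was also lost without restricted replicate 1 (adjusted p = 0.0503). For isoproterenol versus control they were at 0.73 and 0.94 and did not pass (limma adjusted p = 0.276 and 0.158). tRF-Cys-GCA-007 passed there without isoproterenol replicate 5 (1.34, adjusted p = 0.0388), and both were below 0 with median-of-ratios scaling (-0.51 and -0.30) and with the log2 total as a covariate (-0.43 and -0.11, adjusted p = 0.332 and 0.821).

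tRF-Cys-GCA-042, the fifth most abundant fragment, was at 439.5, 20.1, 311, 145 and 324 CPM in restricted, 63.1, 359, 236, 91.3 and 111 CPM in isoproterenol and 286, 174, 263, 79.7 and 178 CPM in control ventricles. The 3 groups overlapped throughout. Its log2 fold change was -0.10 for restricted versus control (95% interval -1.40 to 1.20, limma adjusted p = 0.912) and -0.35 for isoproterenol versus control (-1.65 to 0.94, limma adjusted p = 0.662). With median-of-ratios scaling tRF-Cys-GCA-042 was called lower in both (-1.71 and -1.59, adjusted p = 0.0128 and 0.0193), as it was by edgeR with TMM factors (-1.39 and -1.63, adjusted p = 0.0212 and 0.00965) and by DESeq2 (-1.38 and -1.49, adjusted p = 0.0147 and 0.00794). With the log2 total as a covariate tRF-Cys-GCA-042 was called lower in isoproterenol versus control (-1.39, adjusted p = 0.0484) but not in restricted versus control (-1.01, adjusted p = 0.116). Without restricted replicate 2 the restricted value was 0.65 (adjusted p = 0.339).

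A ratio of fragments within a library does not depend on the divisor. The reads of tRF-Cys-GCA-029 per read of tRF-Cys-GCA-051, the most abundant pair over all libraries, were 18.2, 3.87, 4.35, 11.6 and 5.12 in restricted, 37.0, 5.62, 14.5, 8.88 and 2.78 in isoproterenol and 0.895, 0.377, 0.706, 0.309 and 0.545 in control ventricles. Every treated library was above 1 and every control library below it. This ratio was chosen after the values were seen. On the log2 scale it was 4.17 higher in isoproterenol than in control (3.24 ± 1.41 against -0.93 ± 0.63, SD, n = 5 each, two-sided exact permutation p = 0.00794, the smallest 5 against 5 allows, adjusted over 3 comparisons 0.0119). It was 3.76 higher in restricted than in control (2.83 ± 0.98 against -0.93 ± 0.63, exact permutation p = 0.00794, adjusted 0.0119). Restricted and isoproterenol ventricles differed by -0.41, less than the spread within either group (exact permutation p = 0.627).

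Over the 22 fragments, the count of rises for isoproterenol versus control was 6, beside 35.5% of all 707 tsRNAs tested, and the count of falls was 8, beside 12.4% of all. The groups did not overlap in 5 rises and 6 falls, beside 19% and 8.49% of all tsRNAs. The median log2 fold change of the cysteine fragments was -0.40, from -4.55 to 4.46, while over all tsRNAs it was 1.26. Median-of-ratios scaling moved the median over all tsRNAs to 0.15, with 114 rises and 139 falls in place of 251 and 88, and that of the cysteine fragments to -1.58. Among the cysteine fragments it gave 6 rises and 9 falls, beside 35.8% of all tsRNAs called, and the 14 calls as deposited all stayed in the same direction. With edgeR on the recovered reads and the authors' totals, which tested 12 of the 22 after its own filter, there were 3 rises and 5 falls, all of them among the 14, beside 68% of the 347 tsRNAs it tested. With TMM factors edgeR gave 3 rises and 6 falls, beside 44.4% of all, and 1 of the falls, tRF-Cys-GCA-042, was not among the 14.

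Among the restricted group's differences from control, the 7 rises stood beside 47.7% of all tsRNAs and the 6 falls beside 10.7%. Groups did not overlap in 6 rises and 2 falls, beside 31.1% and 9.19% of all. In these falls, tRF-Cys-GCA-046 and tRF-Cys-GCA-041, the closest restricted and control libraries had equal reads. The median log2 fold change was -0.12, from -3.21 to 4.63, and over all tsRNAs it was 1.60. The same rescaling took the median over all tsRNAs to 0.24, with 107 rises and 146 falls in place of 337 and 76. It took the median of the cysteine fragments to -1.66, with 5 rises and 10 falls among them, beside 35.8% of all tsRNAs called. Without control replicate 4 there were 5 rises and 5 falls among the 22, beside 49.6% of all tsRNAs called. The comparison shares its controls with the previous one, and 11 fragments were called in both.

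Restricted versus isoproterenol asks what caloric restriction before the drug changed. Of the 22 fragments 0 passed in limma, as did 0% of all tsRNAs, and the groups were fully apart in 0 fragments, beside 0.99% (higher) and 0.707% (lower) of all. Of the 22, 3 had an unadjusted p under 0.05, beside 116 of all 707. On the recovered reads edgeR called 0 of the 12 cysteine fragments it tested, beside 1 of 347 tsRNAs with the authors' totals and 0 with TMM factors, and DESeq2 called 0 of the 22, beside 34 of the 714 listed tsRNAs. DESeq2 left tRF-Cys-GCA-022 without an adjusted p in this comparison, so its counts are over listed tsRNAs and not over tested ones. tRF-Cys-GCA-022 was at -2.39 (SE 0.91, limma adjusted p = 0.23), tRF-Cys-GCA-051 at 1.30 (SE 0.57, adjusted p = 0.261) and tRF-Cys-GCA-050 at 1.33 (SE 0.59, adjusted p = 0.261), and in all 3 the groups overlapped, with values as given above. The 95% intervals were -4.22 to -0.56, 0.16 to 2.43 and 0.15 to 2.51, which leaves wide limits on each difference. The median over the 22 was 0.65, from -2.39 to 1.66, and over all tsRNAs 0.44. With the log2 total as a covariate, tRF-Cys-GCA-050 (1.43, adjusted p = 0.0291) and tRF-Cys-GCA-029 (1.04, adjusted p = 0.0405) were called higher in restricted ventricles, and tRF-Cys-GCA-051 (1.37, adjusted p = 0.0518) was not. These 2 of the 22 stood beside 43 of all 707 tsRNAs (6.08%) called in that fit.

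The remaining 5 fragments passed in no comparison as deposited with all 15 libraries. tRF-Cys-GCA-037 was called lower in restricted than in control ventricles with median-of-ratios scaling and by DESeq2. For isoproterenol versus control, tRF-Cys-GCA-047 was called lower with equal listed totals and without isoproterenol replicate 4. tRF-Cys-GCA-004 ran from 18.0 to 42.7 CPM in restricted, 1.94 to 47.1 CPM in isoproterenol and 6.20 to 29.7 CPM in control ventricles. tRF-Cys-GCA-026 ran from 20.1 to 48.8 CPM in restricted, 3.04 to 47.1 CPM in isoproterenol and 2.66 to 32.9 CPM in control ventricles. tRF-Cys-GCA-037 and tRF-Cys-GCA-040 were below 10 CPM on average in every group. tRF-Cys-GCA-047 was at 18.3, 619, 4.50, 10.9 and 8.99 CPM in restricted, 55.7, 7.81, 0, 79.1 and 11.7 CPM in isoproterenol and 47.6, 61.3, 26.0, 40.7 and 55.0 CPM in control ventricles. Restricted replicate 2 held 246 of the 255 reads of its group, which made tRF-Cys-GCA-047 18.0% of the cysteine fragment reads of that library against at most 5.01% in any other.

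That library also stood highest of its group in tRF-Cys-GCA-065 and tRF-Cys-GCA-010 and lowest in tRF-Cys-GCA-042. Without it tRF-Cys-GCA-047 and tRF-Cys-GCA-010 were called lower in restricted than in control ventricles, and tRF-Cys-GCA-054 and tRF-Cys-GCA-066 no longer were. Over all 15 libraries, as deviations from group means, tRF-Cys-GCA-047 and tRF-Cys-GCA-065 had a Pearson r of 0.895. Among the 253 pairs of the 22 fragments and the 1 listed tiRNA of this tRNA, r ran from -0.796 to 0.989 with a median of 0.248, and 14 pairs were above 0.8. All these libraries share their divisor across fragments, so the correlations are a description of the values.

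A single tiRNA of this tRNA, the class named for cleavage at the anticodon, was listed, and this tiRNA-Cys-GCA-004 was at 134, 5.03, 58.5, 39.8 and 85.4 CPM in restricted, 22.3, 78.1, 66.0, 9.13 and 36.9 CPM in isoproterenol and 43.9, 30.6, 48.2, 15.9 and 47.2 CPM in control ventricles. The groups overlapped. It did not pass in any comparison: its log2 fold change was 0.37 for restricted versus isoproterenol (95% interval -1.07 to 1.81, limma adjusted p = 0.791), -0.05 for isoproterenol versus control (-1.49 to 1.38, adjusted p = 0.951) and 0.32 for restricted versus control (-1.12 to 1.75, adjusted p = 0.714). These values moved with the scaling. For isoproterenol versus control, median-of-ratios scaling gave -1.27, edgeR with TMM factors -1.22 and DESeq2 -1.11 (adjusted p = 0.0868, 0.0602 and 0.0917). The same settings gave -1.27, -0.97 and -0.96 for restricted versus control (adjusted p = 0.0855, 0.113 and 0.131). With edgeR and the authors' totals these comparisons gave 0.12 and 0.78, and with the log2 total as a covariate -1.05 and -0.56. Across libraries tiRNA-Cys-GCA-004 varied with tRF-Cys-GCA-042 (r = 0.933 over 15 libraries, as deviations from group means).

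Ser-GCT, Asp-GTC and His-GTG, whose anticodons are likewise carried by both a nuclear and a mitochondrial gene, were set beside Cys-GCA. They are not all the tRNAs of this kind. For isoproterenol versus control, tRFs of Ser-GCT had 6 rises and 7 falls among 18 (median log2 fold change 0.84), those of Asp-GTC 7 rises and 4 falls among 24 (0.89) and those of His-GTG 20 rises and 3 falls among 26 (2.82). Of these 4 families Cys-GCA alone had a median below 0 there, and both it and Ser-GCT had more falls than rises. The counts for restricted versus control were 7 rises and 7 falls in Ser-GCT, 9 and 3 in Asp-GTC and 20 and 3 in His-GTG, with medians of 1.44, 1.13 and 2.69. Differences between these families were not tested.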

How the data were processed

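Small RNA from left ventricle of 15 rats was pretreated with a kit that removes base modifications, and gel-purified inserts spanned 14 to 40 nt, per the labels' protocols. The table deposited by the authors holds CPM for 714 tsRNAs, 1 column per rat. Cutadapt and edgeR are named without version or role, per the submitters' processing notes. How reads were aligned, and to which tRNA set and assembly, was not given in the sources used here. All values (100%) were whole multiples of 1 read within 0.001 reads, which gave back the library totals and reads. Replicates are rats that the titles number within a group. Libraries of a group all differed beyond counting noise, with 7.52 the smallest chi-square divided by its degrees of freedom.

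limma 3.58.1 (eBayes with trend, R 4.3.3) was fitted to log2(CPM + 1) for all 15 libraries and the 3 groups. The filter was at least 1 CPM in at least 5 libraries. This scale understates the change of low tsRNAs and gives libraries at 0 much weight. Values in every library are given for the 5 most abundant cysteine fragments and for every one past the threshold in any comparison. Where none passed, the 3 with the smallest p are named. Alternatives were other scalings, pseudocounts and filters, edgeR 4.0.16 (quasi-likelihood, which of the 347 tsRNAs it tested called 236 for isoproterenol versus control, 261 for restricted versus control and 1 between the treated groups with the authors' totals, and 154, 165 and 0 with TMM factors) and DESeq2 1.42.0 on the recovered reads, 2-group fits, the log2 total as a covariate, a replicate block and leaving out each library. The members and lists were chosen with earlier results of these data known. The limma fit was tested on simulated data whose reads followed the library totals and whose rises and falls were equally likely. These data differ from it in both, so that test does not bear on either point.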

Additional observations from a re-analysis of the deposited data

Results flagged for a closer look

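Among the cysteine fragments, 11 values lay apart from the other 4 of their group by Dixon's criterion for 5 samples, of 70 groups of values examined. Chance flags about 1 in 20 groups where values are independent and normally distributed. Low CPM values and a sum of the same fragments need not be, so the count cannot be set against that rate. Restricted replicate 2 accounted for 3 of the 11 values: tRF-Cys-GCA-047 at 618.753 CPM (next highest 18.3), tRF-Cys-GCA-010 at 140.854 CPM (next 25.3) and tRF-Cys-GCA-065 at 128.278 CPM (next 36.6). Control replicate 4, the library with the largest total, was low in another 3: the summed level of all 22 fragments at 1284.45 CPM (next lowest 3920.1), tRF-Cys-GCA-051 at 465.06 CPM (next 1391) and tRF-Cys-GCA-050 at 94.7836 CPM (next 434).

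Restricted replicate 4 was high in tRF-Cys-GCA-046 at 65.1397 CPM (next highest 13.5) and in tRF-Cys-GCA-054 at 21.7132 CPM (next 6.10). The remaining values were tRF-Cys-GCA-005 at 226.24 CPM in isoproterenol replicate 3 (next 52.0), tRF-Cys-GCA-022 at 44.5436 CPM in isoproterenol replicate 1 (next 15.5) and tRF-Cys-GCA-037 at 25.6243 CPM in control replicate 1 (next 7.86).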

How the results depend on the processing

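Leaving out 1 library at a time gave 6 to 7 rises and 7 to 9 falls for isoproterenol versus control, 0 of either for restricted versus isoproterenol, and 5 to 7 rises and 4 to 6 falls for restricted versus control. The lowest count, 4 falls, came without control replicate 2. edgeR with the authors' totals gave 3 rises and 5 falls for isoproterenol versus control, and with TMM factors 3 rises there and 3 for restricted versus control; it tested 12 of the 22 fragments after its own filter. DESeq2 gave 4 rises and median-of-ratios scaling 10 falls for restricted versus control. The log2 total as a covariate gave 2 rises for restricted versus isoproterenol, beside 43 of all 707 tsRNAs called. With the listed tsRNAs scaled to the same total, the summed level differed by -3293.53 CPM for isoproterenol and -1350.95 CPM for restricted versus control. For the settings in this paragraph that changed a count of calls and did not change the number of fragments or libraries, the cause was not tested.

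Directions turned in fragments that were not called, or whose call rests on the scaling. For isoproterenol versus control, tRF-Cys-GCA-007 was at -0.304671 with median-of-ratios scaling, -0.151291 with equal listed totals, -0.366422 with edgeR and TMM, -0.261235 with DESeq2 and -0.109075 with the covariate; tRF-Cys-GCA-029 was at -0.510014, -0.356534, -0.531786, -0.429527 and -0.430857 in that order. For restricted versus control, tRF-Cys-GCA-007 was at -0.0375118, -0.0413786 and -0.021425 with median-of-ratios scaling, edgeR with TMM and DESeq2, and tRF-Cys-GCA-029 at -0.0160806 and -0.00149471 with the last 2 of these. tRF-Cys-GCA-042 turned to 0.332661 by edgeR with the authors' totals, to 0.362085 without control replicate 4 and restricted replicate 2 together (chosen after seeing the data), and ran from -0.44 to 0.65 leaving out 1 library at a time. The log2 ratio of tRF-Cys-GCA-029 to tRF-Cys-GCA-051 for restricted versus isoproterenol ran from -0.85 to 0.0861679, which came without isoproterenol replicate 1. Leaving out 1 library at a time, the ratio for isoproterenol and restricted versus control ran from 3.67 to 4.61 and from 3.42 to 3.98 (exact permutation p = 0.0159 each), and as a difference of group medians it was 4.03 and 3.23 (exact permutation p = 0.0476 each).

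The replicate numbers name different animals and do not pair them: of 15 same-numbered pairs the correlation of deviations ran from -0.117 to 0.258, with 1 above 0.1, and the closest library of another group had the same number in 6 of 30 cases. With the replicate block there were 6 rises and 8 falls for isoproterenol versus control, 0 of either for restricted versus isoproterenol and 7 rises and 6 falls for restricted versus control. Many of the fragments that changed rest on few reads in 1 group, so their fold changes are imprecise.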
